A study of Mus musculus with 5 samples.

Results

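The urea cycle disposes of the ammonia that amino acid breakdown releases, and in mammals the complete cycle runs in the hepatocyte. The 9 genes described here are the 5 enzymes of the cycle (*Cps1*, *Otc*, *Ass1*, *Asl* and *Arg1*), *Nags*, which makes the activator of *Cps1*, the mitochondrial carriers *Slc25a13* and *Slc25a15*, and *Arg2*, the arginase of tissues outside the liver. They were taken from a list of names, and the brightest array row that carried a single gene symbol stood for each gene. Of the 9 members, 7 had such a row, out of 18820 genes that had one on the array. *Ass1* and *Arg2* were carried only on rows shared with another gene, and their rows are described apart.

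Liver RNA came from adult C57BL/6 mice that received subcutaneous injections on 4 consecutive days and were killed on day 5. The study treated both male and female mice, and the sex of the mouse behind each array is not given here. There were 2 liver samples from mice given phosphate-buffered saline (PBS) and 3 from mice given CSF1-Fc, a fusion of pig macrophage colony-stimulating factor with an immunoglobulin Fc region that lengthens its time in the circulation. Each sample was hybridized to its own Affymetrix Mouse Gene 1.1 ST array, a single-colour array whose probes lie along the whole transcript. The labels name no genetic change, and each array stood for an individual mouse. Whole liver was used, and every value is a mixture of hepatocytes and the other cells of the organ. The 5 arrays had a median of at least 31.1 intensity units each, and the hepatocyte marker *Alb* was at a mean log2 intensity of 13.22 in PBS and 13.26 in CSF1-Fc livers.

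Urea synthesis spans the mitochondrion and the cytosol. In the matrix *Cps1* joins ammonia and bicarbonate into carbamoyl phosphate, and *Otc* transfers this to ornithine to give citrulline. Citrulline leaves through *Slc25a15* in exchange for ornithine, and in the cytosol *Ass1* condenses it with aspartate, which *Slc25a13* (citrin) exports from the matrix. *Asl* cleaves the product to arginine and fumarate, and *Arg1* splits arginine into urea and ornithine. The cycle is most active in hepatocytes near the portal tract, and its genes are known to respond to glucagon, glucocorticoids and dietary protein.

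Promoter sequences were available for 5 of the 9 members in the RefSeq table of mouse build GRCm38.p6. They are shown for the 3 members of that group whose transcripts passed the test below, and for *Nags*, which did not, so that their base composition can be compared. Each run ends at the base before the outermost annotated start of the gene and reads 5′ to 3′ on the strand of the gene. Capitals mark a GC box (GGGCGG on either strand), the only one of the motifs searched that fell in these runs. The *Otc* run is chrX:10252055-10252229 (plus strand), *Slc25a13* is chr6:6217305-6217423 (minus strand), *Slc25a15* is chr8:22398622-22398871 (minus strand) and *Nags* is chr11:102145263-102145512 (plus strand).
*Otc*: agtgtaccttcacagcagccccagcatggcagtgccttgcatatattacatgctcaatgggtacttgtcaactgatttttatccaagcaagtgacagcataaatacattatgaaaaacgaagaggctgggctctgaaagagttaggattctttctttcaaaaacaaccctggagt
*Slc25a13*: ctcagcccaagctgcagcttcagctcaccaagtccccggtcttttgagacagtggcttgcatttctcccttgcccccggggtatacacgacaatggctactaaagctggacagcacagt
*Slc25a15*: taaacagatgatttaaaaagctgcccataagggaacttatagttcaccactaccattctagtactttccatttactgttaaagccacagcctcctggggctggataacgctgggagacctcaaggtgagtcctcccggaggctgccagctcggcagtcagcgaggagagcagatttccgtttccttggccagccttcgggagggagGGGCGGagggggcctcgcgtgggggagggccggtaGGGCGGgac
*Nags*: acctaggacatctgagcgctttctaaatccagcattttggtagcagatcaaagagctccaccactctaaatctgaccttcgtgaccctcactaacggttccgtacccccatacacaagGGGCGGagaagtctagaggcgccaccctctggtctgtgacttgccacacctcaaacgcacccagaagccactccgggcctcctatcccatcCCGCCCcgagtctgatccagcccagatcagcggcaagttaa

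The *Otc* run had a G and C content of 41.7% with 1 CpG in 175 bases, against 57.6% with 11 CpG in 250 bases for *Slc25a15*, 55.5% with 3 in 119 bases for *Slc25a13* and 55.6% with 11 in 250 bases for *Nags*. GC boxes numbered 2 in the *Slc25a15* run, 2 in the *Nags* run and 0 in the others, and 35.7% of the 32851 windows of 300 bases in the table held at least 1. Searched in the same way on both strands of the 300-base windows were the CCAAT box (CCAAT, in 37.4% of all windows), the TATA box (TATAAA, 13.6%), the core of the cAMP response element (TGACG, 20.8%), a C/EBP motif (TTGCNNAA, 10.8%), an HNF4 core (CAAAGT, 14.4%), an HNF1 core (GTTAAT, 7.1%), a glucocorticoid receptor core (TGTTCT, 19.0%) and an E box (CACGTG, 7.15%). None of these letters lay in the *Otc* window. The windows of *Nags* and *Slc25a13* each held 1 cAMP element core, and that of *Slc25a13* also held 1 CCAAT box and 1 E box, all beyond the runs printed here. A further window of *Slc25a15*, at another annotated start, held 1 E box and 5 GC boxes.

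Both mitochondrial carriers and 2 enzymes of the urea cycle were lower in CSF1-Fc livers. *Slc25a15*, *Slc25a13*, *Asl* and *Otc* fell at an adjusted p under 0.05 in limma, which was fitted over all 35556 rows of the array with Benjamini-Hochberg adjustment. *Cps1*, *Arg1* and *Nags* did not pass the test, and no member was higher. So 4 of 7 members were lower, where 3.95% of all named genes were lower and 8.34% were higher. Among the 1989 named genes with a mean log2 intensity inside the range of the members (9.21 to 12.24), 11.1% were lower and 7.94% were higher. For 6 of the 7 members every CSF1-Fc array lay below both PBS arrays, and for 0 members did every CSF1-Fc array lie above them, as was so for 29.3% and 18.2% of all named genes. The median log2 difference was -0.69 over the members and -0.08 over all named genes. The members were chosen with earlier results of these data known, so these shares and medians are a description and not a test.

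**Figure D1:**
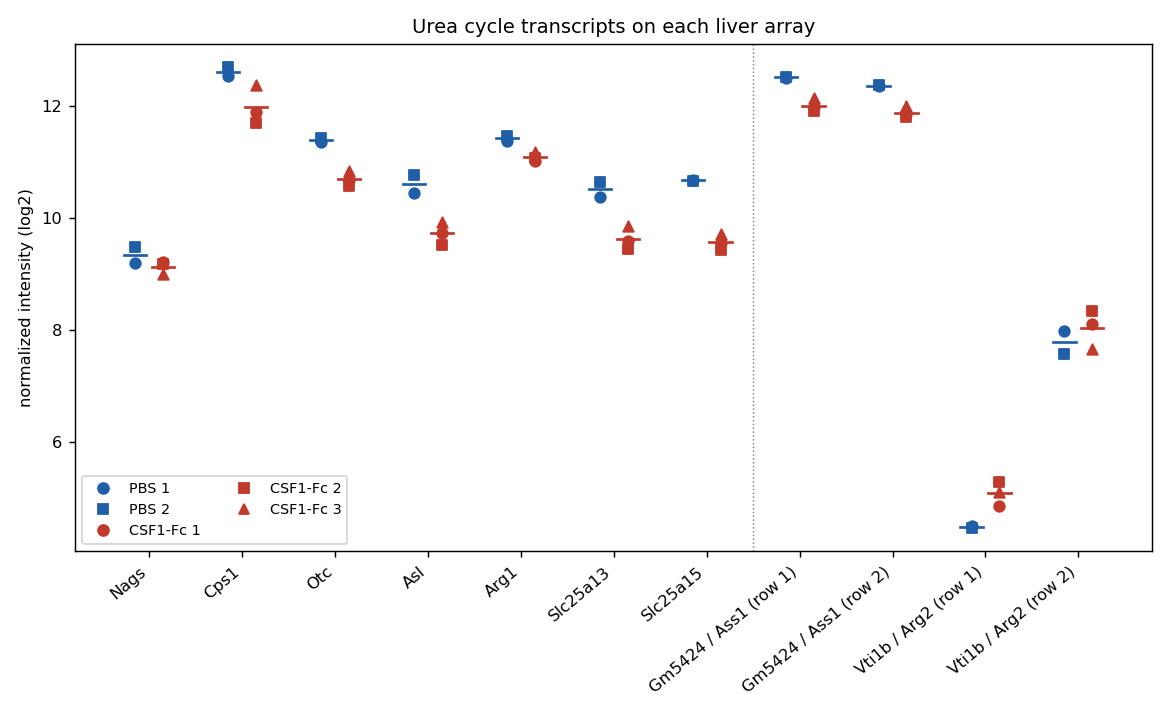
Normalized log2 intensity (vertical axis) of each member on each array; blue points are the 2 PBS and red points the 3 CSF1-Fc livers, the marker shape gives the replicate number and the bars are group means. Left of the dotted line are the 7 members with a row of their own, where the groups overlap only for *Nags*, and right of it the 4 rows shared with another gene.

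*Slc25a15*, the ornithine and citrulline exchanger, had the deepest fall of the members. Its log2 intensity was 10.68 and 10.67 in the PBS livers and 9.56, 9.44 and 9.72 in the CSF1-Fc livers. The PBS livers were nearly equal, and the highest CSF1-Fc liver was 0.95 below the lower PBS liver. The log2 difference was -1.10 (standard error 0.14, adjusted p = 0.00524 in limma), so CSF1-Fc livers had 46.7% of the PBS intensity (95% interval 37.0% to 58.9%). *Slc25a13*, the aspartate and glutamate carrier, was at 10.38 and 10.65 in PBS and at 9.59, 9.45 and 9.85 in CSF1-Fc livers. The groups did not overlap, with a gap of 0.53, and the PBS livers differed by 0.27. The log2 difference was -0.89 (standard error 0.17, adjusted p = 0.0268), or 54.1% of the PBS level (40.6% to 72.1%). Its paralog *Slc25a12* (aralar), which performs the same exchange mainly in muscle and brain, was at 8.97 and 8.80 in PBS and 9.20, 8.96 and 9.11 in CSF1-Fc livers and did not pass the test (0.21, adjusted p = 0.449).

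Among the matrix enzymes the call was that of *Otc*. Its log2 intensity was 11.35 and 11.43 in PBS and 10.68, 10.58 and 10.85 in CSF1-Fc livers, with a gap of 0.50 between the groups. The log2 difference was -0.69 (standard error 0.14, adjusted p = 0.0312), or 62.1% of the PBS level (49.2% to 78.3%). *Cps1* was at 12.53 and 12.70 in PBS and 11.90, 11.71 and 12.37 in CSF1-Fc livers. These groups did not overlap either, but CSF1-Fc replicate 3 lay close to the PBS livers and the CSF1-Fc livers spanned 0.67, the widest range of any member. Its log2 difference of -0.62 (standard error 0.22) had an adjusted p of 0.147, and with that sample dropped it was -0.81 with an adjusted p of 0.0317. *Nags*, which supplies the *N*-acetylglutamate that *Cps1* requires, was at 9.20 and 9.47 in PBS and 9.21, 9.18 and 9.01 in CSF1-Fc livers. The groups overlapped, and the log2 difference was -0.20 (standard error 0.15, adjusted p = 0.485, 95% interval -0.56 to 0.16).

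Of the cytosolic enzymes with a row of their own, *Asl* fell and *Arg1* did not pass the test. *Asl*, which releases arginine and fumarate, was at 10.45 and 10.78 in PBS and 9.73, 9.53 and 9.93 in CSF1-Fc livers. The PBS livers lay 0.32 apart, and the groups were separated by 0.53. The log2 difference was -0.89 (standard error 0.18, adjusted p = 0.0299), or 54.0% of the PBS level (40.1% to 72.7%). *Arg1*, the hepatic arginase, was at 11.38 and 11.48 in PBS and 11.01, 11.08 and 11.18 in CSF1-Fc livers. The CSF1-Fc livers were again all lower, by a log2 difference of -0.34 (standard error 0.13, adjusted p = 0.176, 95% interval -0.65 to -0.03). *Arg1* is also known as a product of alternatively activated macrophages. Of 9 alternative activation markers, 4 were higher in the same livers, with a median log2 difference of 0.53, and their summed intensity was 783 to 784 in PBS and 1928 to 2101 in CSF1-Fc livers. The 4 were *Ccl24* (4.45), *Chil3* (2.04), *Clec10a* (1.42) and *Mrc1* (0.94), and *Retnla*, which is often named with *Arg1*, was dim in all livers and did not pass (-0.11, adjusted p = 0.672). The part of macrophages in the *Arg1* signal was not tested.

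*Ass1* could not be separated from *Gm5424*, a transcribed pseudogene with which both of its array rows were shared. One of these rows read 12.50 and 12.53 in PBS and 11.99, 11.91 and 12.14 in CSF1-Fc livers, a log2 difference of -0.50 (standard error 0.13, adjusted p = 0.075). The other read 12.37 and 12.37 in PBS, against 11.85 and 11.80 for CSF1-Fc replicates 1 and 2, with replicate 3 above these but under both PBS livers, at -0.48 (standard error 0.13, adjusted p = 0.0777). Neither row overlapped between the groups, and neither passed the test. The rows of *Arg2* were shared with *Vti1b*, a gene of vesicle fusion. The dim row was at 4.49 and 4.45 in PBS and 4.85, 5.28 and 5.11 in CSF1-Fc livers (0.61, standard error 0.16, adjusted p = 0.0749), and the brighter row, at 7.99 and 7.57 against 8.11, 8.34 and 7.66, overlapped between the groups (0.25, adjusted p = 0.596). These values belong to the shared rows and give no level of *Ass1* or *Arg2* alone.

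**Figure D2:**
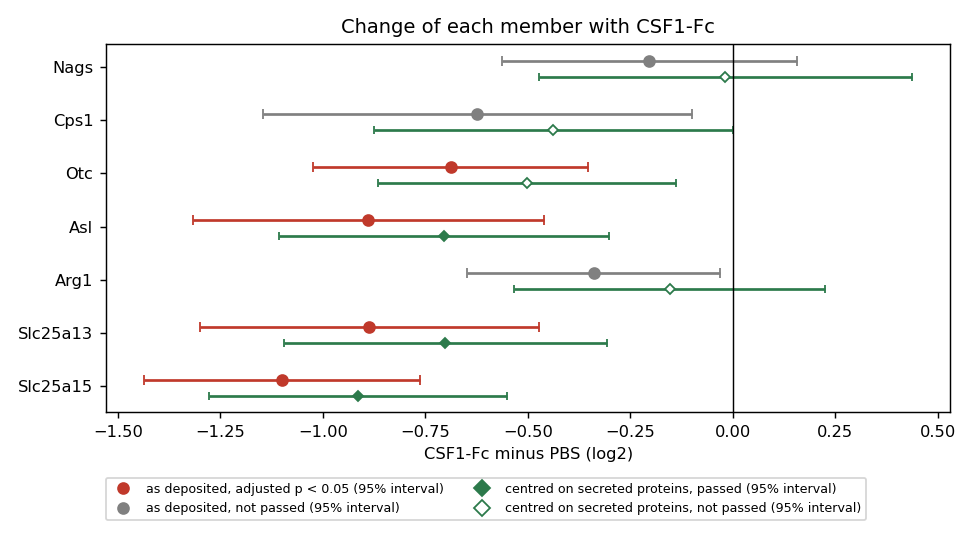
Log2 difference, CSF1-Fc minus PBS (horizontal axis), for each member, with 95% intervals from limma; circles are values as deposited (red passed the test, grey did not) and diamonds are values with each array centred on hepatocyte secreted proteins (filled passed, open did not). *Slc25a15* is lowest on both scales, at -1.10 and -0.91, and *Nags* is nearest to 0.

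The calls rested on few samples. The share of all named genes called is not given for the fits with a sample left out. Calls outside the members changed as well. Of the 98 genes around the cycle, described below, 19 were lower as reported. Lower were 3 with CSF1-Fc replicate 1 left out, 15 with replicate 2 and 28 with replicate 3. The number of members lower was 5 when CSF1-Fc replicate 3 was left out, 0 when either PBS replicate was, and 1, namely *Slc25a15*, when CSF1-Fc replicate 1 or replicate 2 was. For *Slc25a15* the log2 difference stayed at -1.10 when either PBS replicate was dropped, with an adjusted p of 0.0534 (replicate 1 dropped) and 0.058 (replicate 2 dropped). Under the same PBS omissions the adjusted p was 0.149 and 0.22 for *Otc*, 0.0802 and 0.22 for *Asl*, and 0.0868 and 0.206 for *Slc25a13*. Dropping CSF1-Fc replicate 1 gave 0.122 for *Otc*, 0.109 for *Asl* and 0.107 for *Slc25a13*, and dropping replicate 2 gave 0.063, 0.0555 and 0.0523. With no moderation of the variance 0 members passed, and the adjusted p of the 4 lay between 0.0624 (*Slc25a15*) and 0.175 (*Asl*). *Arg1* and *Cps1* passed only when arrays were weighted (adjusted p of 0.039 and 0.0207) and, for *Cps1*, when CSF1-Fc replicate 3 was dropped. At an unadjusted p under 0.05, 6 members were lower, and the share of all named genes at that threshold is not given here.

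**Figure D3:**
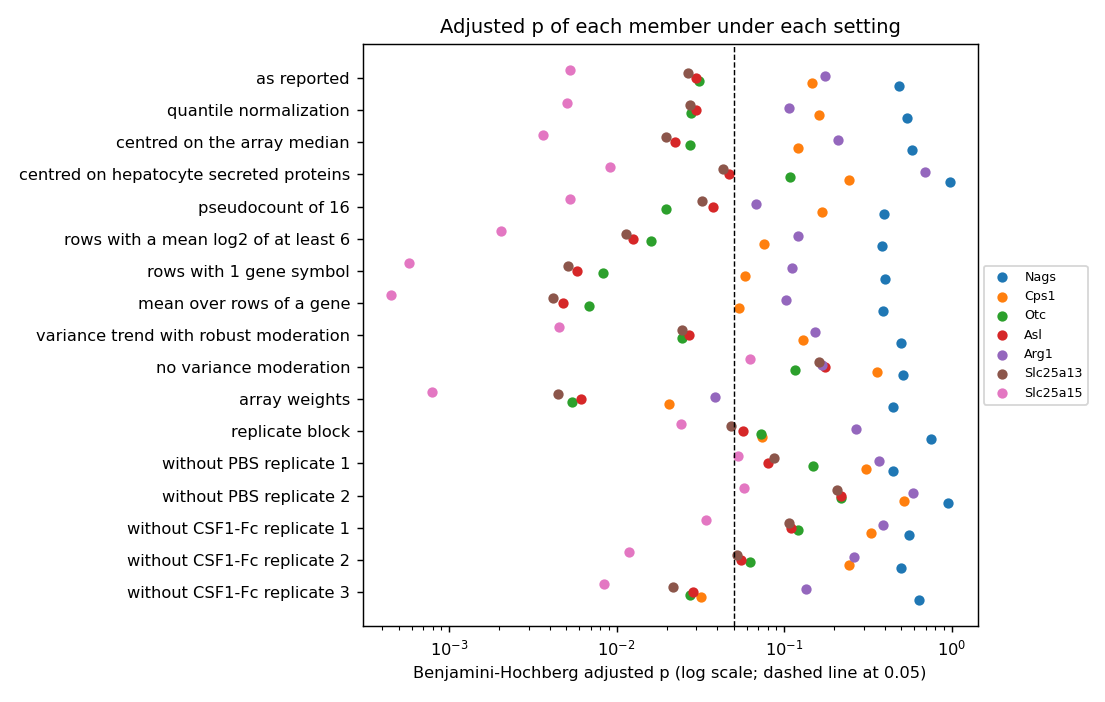
Adjusted p (horizontal axis, log scale) of each member (colour) under each setting of the fit (rows), with the threshold of 0.05 dashed. *Slc25a15* lies left of the line except where a PBS replicate is left out and with no variance moderation, and *Nags* lies right of it in every row.

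The livers of the CSF1-Fc group kept a similar order across members. CSF1-Fc replicate 3 was the highest of the CSF1-Fc livers for 6 of 7 members, and CSF1-Fc replicate 2 was the lowest of all arrays for 5. PBS replicate 1 was below PBS replicate 2 for 6 of 7. The mean log2 intensity of 22 hepatocyte secreted proteins followed the same order in the CSF1-Fc livers, at 12.39, 12.26 and 12.52 in replicates 1 to 3. It was 12.57 and 12.59 in PBS livers. The order did not hold for each gene of the list. *Alb*, *Apoa1* and *Ttr* were lowest in replicate 1 among the CSF1-Fc livers. None of the 22 passed the test in limma, and at the mean they were lower in CSF1-Fc livers by a log2 difference of -0.19. The log2 differences of the 22 ranged from -0.76 to 0.06, so the mean depends on the genes listed. *Alb*, at 13.22 in PBS, lay near the highest mean of any named gene, 13.6. Whether the signal near that level still follows the amount of RNA was not tested.

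Macrophage markers moved the other way, with 16 of 16 higher, a median of 2.42 and a summed intensity of 6603 to 7197 in PBS and 31550 to 34990 in CSF1-Fc livers. Kupffer cell markers were higher for 6 of 6, and neutrophil markers for 7 of 9, with summed intensities of 180 to 243 and 1345 to 1475. Of 6 sinusoidal endothelial markers, *Cdh5* was higher and *Clec4g* lower. The part of these cells in the values of the members was not tested. In bulk liver, fewer hepatocytes and less of a transcript per hepatocyte cannot be told apart.

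When each array was centred on the secreted proteins, *Slc25a15*, *Slc25a13* and *Asl* still passed and *Otc* did not. The log2 difference was -0.91 (adjusted p = 0.00908) for *Slc25a15*, -0.70 (adjusted p = 0.0434) for *Slc25a13* and -0.70 (adjusted p = 0.0471) for *Asl*. For *Otc* it was -0.50 (adjusted p = 0.109), for *Cps1* -0.44 (adjusted p = 0.245), for *Arg1* -0.15 (adjusted p = 0.695) and for *Nags* -0.02 (adjusted p = 0.974). On this scale 3 of 7 members were lower, where 1.89% of all named genes were, and the CSF1-Fc arrays were all below the PBS arrays for 6 members, *Nags* being the exception, where this held for 13% of all named genes. The spread of the 3 CSF1-Fc livers narrowed for 5 members, from 0.29 to 0.03 log2 units for *Slc25a15* and from 0.27 to 0.04 for *Otc*, and widened for *Nags* and *Arg1*. The count of 3 became 0 when either PBS replicate or CSF1-Fc replicate 1 was dropped, and 1 when CSF1-Fc replicate 2 was.

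**Figure D4:**
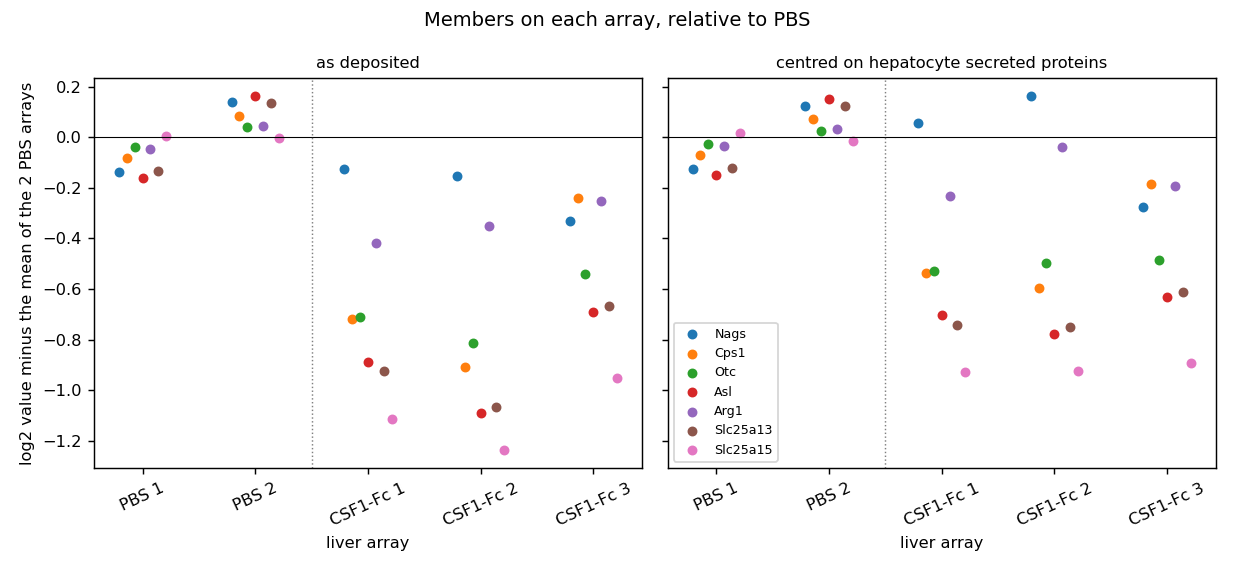
Log2 value of each member (colour) minus its mean over the 2 PBS arrays (vertical axis) on each array (horizontal axis), as deposited and after centring on hepatocyte secreted proteins. On the right the 3 CSF1-Fc points of *Slc25a15* span 0.03 and those of *Otc* 0.04, while those of *Nags* straddle 0.

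The log2 values of 2 genes were also set against each other within each array, for 3 pairs of members that act next to each other and for *Slc25a13* with its paralog. *Asl* minus *Arg1* was -0.93 and -0.70 in PBS and -1.28, -1.55 and -1.25 in CSF1-Fc livers. *Otc* minus *Slc25a15* was 0.67 and 0.76 in PBS and 1.12, 1.14 and 1.12 in CSF1-Fc livers. *Cps1* minus *Nags* was 3.33 and 3.22 in PBS and 2.69, 2.52 and 3.37 in CSF1-Fc livers, so this pair overlapped between the groups. *Slc25a13* minus *Slc25a12* was 1.42 and 1.85 in PBS and 0.39, 0.49 and 0.74 in CSF1-Fc livers. The pairs were chosen with the values known, and an exact permutation test of 2 against 3 arrays cannot go below a p of 0.1, so these values are a description and no difference in change between the genes of a pair was shown. Because the probes differ, the sign and size of such a difference on one array say nothing of relative level.

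The closest profiles over the 5 arrays, among 6820 genes with a mean log2 intensity of at least 7, were found by the root mean square difference of values centred on each gene's own mean. *Asl* was nearest to another member, *Slc25a13*, at 0.03 log2 units. *Slc25a13* itself was nearest to *Shmt1*, a serine hydroxymethyltransferase (0.02), and *Slc25a15* to *Pdk1*, a pyruvate dehydrogenase kinase (0.02). The nearest genes were *Gm10033* for *Cps1* (0.02), *Larp1b* for *Otc* (0.03), *Scap*, a sterol sensor, for *Arg1* (0.02) and *Prr14* for *Nags* (0.03). Over 5 arrays each member thus had a neighbour at 0.02 to 0.03. The distance between *Asl* and *Slc25a13* was no smaller than distances to genes outside the cycle, and shared regulation was not tested.

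Genes around the cycle were grouped by role, and 98 were measured in 6 groups, of which 9 (9.18%) were higher, near the 8.34% of all named genes, and 19 (19.4%) lower, where 3.95% of all named genes and 11.1% of those as bright as the members were. Enzymes that release or pass on nitrogen from amino acids were the group with most calls. Of 27 measured, 0 were higher and 11 (40.7%) lower, with a median of -0.70, close to that of the members. *Prodh*, of proline breakdown, fell by 2.02 (adjusted p = 0.000916), *Gldc*, of glycine cleavage, by 1.28 (adjusted p = 0.0188), *Hal*, of histidine breakdown, by 1.15 (adjusted p = 0.0238) and *Aass*, of lysine breakdown, by 1.12 (adjusted p = 0.0225). *Oat*, which turns ornithine away from the cycle, was at -1.08 with an adjusted p of 0.0517, and the scavenger of ammonia *Glul*, of pericentral hepatocytes, was at -0.54 (adjusted p = 0.154). *Glud1*, which releases ammonia from glutamate, was at -0.50 (adjusted p = 0.298). *Gls2* was not analysed here. The nitrogen group had 2 lower with PBS replicate 1 dropped, 1 with PBS replicate 2 dropped and 1 with CSF1-Fc replicate 1 dropped. The call of *Prodh* held with each sample dropped in turn. Under those omissions the adjusted p of *Hal* was 0.0815, 0.18 and 0.0964, that of *Aass* was 0.0985, 0.168 and 0.0896, and that of *Gldc* was 0.0497, 0.145 and 0.0535.

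Other mitochondrial carriers of the metabolites of the cycle gave 0 higher and 1 lower of 8 (12.5%). Of all named genes 3.95% were lower, and of those as bright as the members 11.1%, though some of the 8 carriers were dimmer than the members. *Slc25a22*, a glutamate carrier, was at 10.15 and 9.95 in PBS and 9.18, 9.07 and 9.17 in CSF1-Fc livers (-0.91, adjusted p = 0.00928). Dropping PBS replicate 1 gave an adjusted p of 0.0918, and dropping replicate 2 gave 0.0551. *Slc25a2*, the second ornithine carrier, was dim, at 3.69 to 4.55 (-0.58, adjusted p = 0.0932). Of 8 genes of bicarbonate supply and of the return of fumarate, 1 was lower and 0 higher, again 12.5%. It was *Pcx*, pyruvate carboxylase (-0.99, adjusted p = 0.0455), which did not pass with PBS replicate 1 (adjusted p = 0.118) or 2 (0.277) dropped, or with CSF1-Fc replicate 1 (0.13) or 2 (0.0538) dropped. With CSF1-Fc replicate 3 dropped, 2 of the 8 were lower, and 2 were lower with arrays centred on secreted proteins. *Car5a*, the mitochondrial carbonic anhydrase that feeds *Cps1*, had only a row shared with *BC048644* and is given no value.

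Of 20 genes grouped around the other fates of arginine and ornithine, 6 (30.0%) were higher, 1 (5.0%) was lower and 13 did not pass, with a median of 0.18. Of all named genes, 8.34% were higher and 3.95% lower. Not every gene of the group acts on arginine or ornithine itself. *Ckb*, brain-type creatine kinase, was at 3.00 (adjusted p = 0.000447), *Aldh18a1*, which makes the precursor of proline and ornithine from glutamate, at 2.35 (adjusted p = 0.0012), *Gatm*, which makes guanidinoacetate from arginine, at 2.07 (adjusted p = 0.00048) and *Sat1*, of polyamine acetylation, at 1.31 (adjusted p = 0.00579). *Gatm* was at 8.98 and 8.81 in PBS and 10.98, 10.84 and 11.08 in CSF1-Fc livers. *Ddah1*, which breaks down methylated arginine, fell by 1.31 (adjusted p = 0.00302). *Odc1*, the ornithine decarboxylase, was at 8.21 and 8.31 in PBS and 8.66, 8.41 and 8.18 in CSF1-Fc livers, which overlap (0.16, adjusted p = 0.652). The nitric oxide synthase of activated macrophages, *Nos2*, was dim in all livers, at 3.39 to 3.71 (0.16, adjusted p = 0.538), and the endothelial *Nos3* was at a mean of 5.35 in both groups (adjusted p = 0.991). With PBS replicate 2 dropped, 3 were higher, and *Sat1* had an adjusted p of 0.0542.

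Of 15 transporters of amino acids, ammonia and urea, 3 were higher and 0 lower. The shares among all named genes were 8.34% higher and 3.95% lower. The 3 were the urea transporter *Slc14a1* (1.61, adjusted p = 0.0149), the arginine importer *Slc7a1* (1.21, adjusted p = 0.0104) and *Slc7a6* (1.00, adjusted p = 0.017). All 3 were dim in PBS, between 3.85 and 4.88 on the log2 scale. *Slc7a2*, the cationic amino acid carrier of hepatocytes, was at 10.46 and 11.09 in PBS and 9.40, 9.48 and 10.31 in CSF1-Fc livers (-1.04, adjusted p = 0.116). With CSF1-Fc replicate 3 dropped it was at -1.33 (adjusted p = 0.0293). The higher count was 1 with PBS replicate 1 dropped and 0 with PBS replicate 2 dropped, and the lower count was 5 with CSF1-Fc replicate 3 dropped. Under the PBS omissions the adjusted p of *Slc14a1* was 0.0885 and 0.109, that of *Slc7a1* was 0.0868 and 0.0667, and that of *Slc7a6* was 0.0312 and 0.128.

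Of 20 known or proposed regulators of urea cycle genes, 0 were higher and 5 lower, with a median of -0.53. Among all named genes 8.34% were higher and 3.95% lower, and 11.1% of those as bright as the members were lower. Some of the regulators were dimmer than the members. The 5 were *Tbx3* (-1.53, adjusted p = 0.0481), *Klf15*, a factor of amino acid breakdown in fasting (-0.91, adjusted p = 0.0422), *Sirt3*, a mitochondrial deacetylase (-0.79, adjusted p = 0.0324), the bile acid receptor *Nr1h4* (-0.75, adjusted p = 0.043) and the glucagon receptor *Gcgr* (-0.71, adjusted p = 0.0206). *Cebpa* was at 10.42 and 10.25 in PBS and 9.87, 9.98 and 9.91 in CSF1-Fc livers and did not pass (-0.41, adjusted p = 0.114). Of these 5, *Klf15* alone passed with PBS replicate 1 dropped, and 0 passed with PBS replicate 2 or CSF1-Fc replicate 1 dropped. *Gcgr*, *Klf15* and *Sirt3* passed with CSF1-Fc replicate 2 dropped, and *Gcgr*, *Nr1h4* and *Tbx3* with CSF1-Fc replicate 3 dropped. With PBS replicate 2 dropped the regulators called lower were 2 others, *Foxa1* and *Onecut1*. With arrays centred on secreted proteins *Tbx3* was the 1 that passed, and the others were at an adjusted p of 0.119 (*Klf15*), 0.155 (*Sirt3*), 0.0886 (*Nr1h4*) and 0.158 (*Gcgr*).

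**Figure D5:**
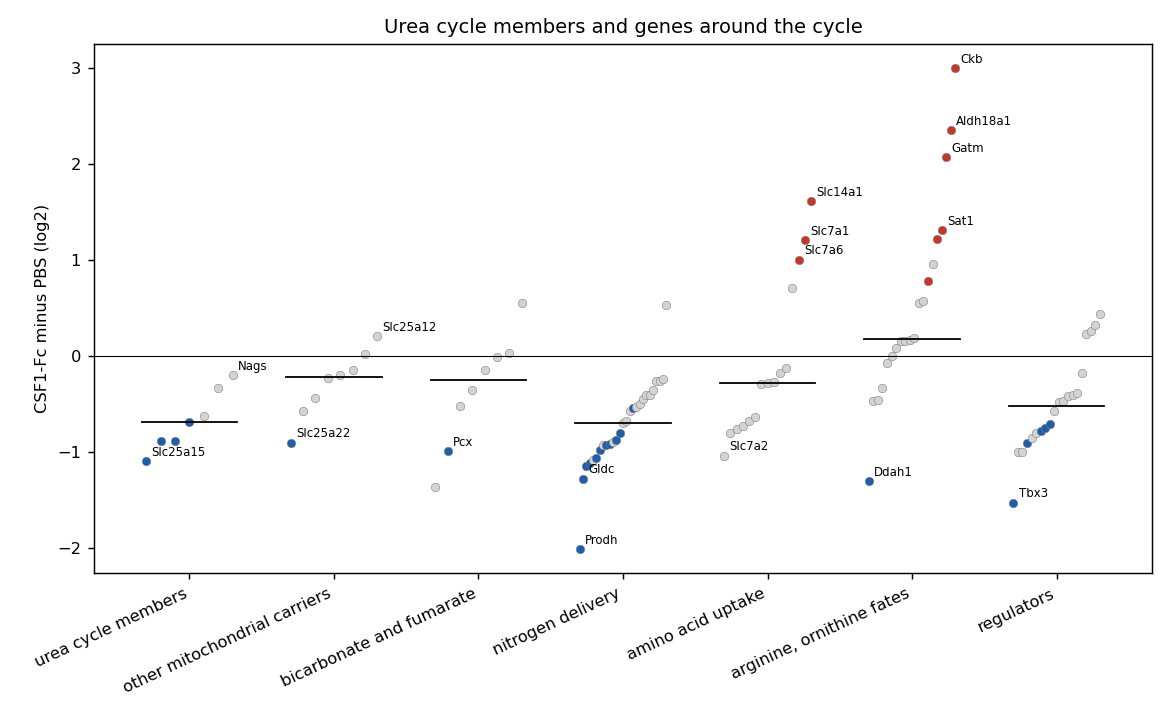
Log2 difference, CSF1-Fc minus PBS (vertical axis), of the members and of 6 groups of genes around the cycle; each point is 1 gene in order of its value, red points passed as higher, blue as lower, grey did not pass, and the bars are group medians. The medians of the members (-0.69) and of nitrogen delivery (-0.70) lie lowest, and that of arginine and ornithine fates (0.18) is the only one above 0.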

How the data were processed

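Arrays were hybridized with liver RNA of 2 PBS and 3 CSF1-Fc samples. The deposited values are intensities that the authors normalized, on a linear scale, with 1 value for each transcript row. The study's methods name scanning in GeneChip Command Console, quality checks in Expression Console (version 1.1 in the submitters' notes) and import into Partek Genomics Suite; how background was corrected and probes were normalized and combined is not given in these sources. Log2 was taken with no pseudocount and no filter. Rows were named from the platform annotation: 21218 carried 1 symbol, 1881 several and 12457 none. limma 3.58.1 in R 4.3.3 (lmFit, eBayes) compared the groups over 35556 rows, with 3 residual and 3.34 prior degrees of freedom and a threshold of 0.05 on the Benjamini-Hochberg adjusted p. The methods name no test for the arrays. Arrays have no read depth; the number of arrays sets the precision.

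The members and the gene lists were chosen with earlier results of these data known. Named were every member, from each of the 6 lists around the cycle the 4 genes that passed with the greatest absolute change (where 0 passed, those of lowest p), a fixed set of paralogs and branch point genes, and the nearest profile to each member; *Ddah1*, *Foxa1*, *Onecut1* and the alternative activation and endothelial markers were named after their values were seen, and *Alb*, *Apoa1* and *Ttr* illustrate a list. The fit was repeated after quantile normalization, after centring each array (on its median, or on 22 hepatocyte secreted proteins), with a pseudocount of 16, on rows with a mean log2 of at least 6, on rows with 1 symbol, on the mean over rows, with array weights (statmod 1.5.0), with a trended robust variance prior or none, with a block for the replicate number, at other thresholds and with each sample dropped. The fit was tested on data drawn at random with known changes. It recovered 0 of 67 changes of 0.7 log2 units, 10 of 67 of 1 and 41 of 66 of 2, with 4 false calls. Fewer rows were changed in that draw than were called in the livers, which makes its adjusted threshold stricter. A gene that did not pass is therefore not shown to be unchanged. Some genes of the lists are not analysed here.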

Additional observations from a re-analysis of the deposited data

How the results depend on the processing

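Fits that changed only the rows tested, the variance prior or the threshold left a member's log2 difference as it was. So did the mean over rows, since no member had a second row of its own. In the other alternatives no direction of the 7 members turned. Of 126 member values over 18 alternatives, 100 kept their side of the threshold, 21 lost a call and 5 gained one. Shares of all named genes are given only for the fit as reported and with arrays centred on secreted proteins. The number of members lower was 4 as reported, 0 with no variance moderation, 2 with the replicate number as a block (replicate block) and 0 to 5 with each sample left out; the number higher was 0 throughout. Relative to hepatocyte secreted proteins it was 3, with 0 under the replicate block and 0 to 3 with each sample left out. In the 6 groups around the cycle, 9 genes were higher as reported, 15 with the mean over rows of a gene, 15 with array weights, 15 at an unadjusted p under 0.05, 2 with no variance moderation and 3 to 10 with each sample left out. Lower were 19 as reported, 34 among rows with a mean log2 of at least 6, 40 among rows with 1 symbol, 42 with the mean over rows of a gene, 45 with array weights, 36 at an adjusted p under 0.1, 50 at an unadjusted p under 0.05, 3 with no variance moderation and 3 to 28 with each sample left out. *Nos3*, at -0.0042, turned sign with centring on the median (0.0056) or on secreted proteins (0.18), array weights (0.043) and the replicate block (0.068), and ranged from -0.051 to 0.068 with each sample left out, positive when PBS replicate 2 (0.043) or CSF1-Fc replicate 3 was dropped. *Onecut1* was at 0.25 as reported and from -1.54 to 2.05 with each sample left out. The deviations of same-numbered samples from their group means had correlations of -0.07 and -0.33. With 2 PBS samples these deviations mirror each other, so the check cannot decide whether the numbers pair the samples. The cause of these changes was not tested. The number of arrays limits the precision, and the 95% interval of *Nags* ran from -0.56 to 0.16.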

Other observations

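*Onecut1*, a liver-enriched transcription factor listed among the regulators, set the PBS livers apart more than any group difference among the members. It was at a log2 intensity of 11.14 in PBS replicate 1 and 7.55 in PBS replicate 2, and at 9.55, 9.60 and 9.64 in the CSF1-Fc livers. Its difference between the groups was 0.25 (standard error 0.93, adjusted p = 0.912), and its direction depended on which PBS sample was kept. It was higher with PBS replicate 1 dropped (2.05, adjusted p = 0.00518) and lower with PBS replicate 2 dropped (-1.54, adjusted p = 0.0135). The members themselves differed between the same PBS livers by 0.01 to 0.32 log2 units.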
